A study of Homo sapiens with 8 samples.

Results

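Matrix metalloproteases and their relatives were followed across VHL status and oxygen in 786-O, an established human renal cell carcinoma (RCC) line that lacks functional VHL. The set comprised all 64 genes on the array whose only annotated symbol was MMP, ADAM, ADAMTS or TIMP followed by a number, out of 18417 genes with 1 symbol. It held 22 MMP, 21 ADAM, 17 ADAMTS and 4 TIMP genes, and each gene was represented by its transcript cluster (the array's unit for 1 gene or transcript) with the highest mean signal over the 8 arrays.

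The arrays came from VHL+ cells under hypoxia, VHL+ cells under normoxia, VHL- cells under hypoxia and VHL- cells under normoxia, with 2 biological replicates of each. VHL+ cells carried an expression vector for VHL and are a stable transfectant per the study's methods, whereas the VHL- cells of these arrays were not transfected. The effect of VHL and that of carrying a vector therefore cannot be told apart here. Hypoxia lasted 24 h at 1% O2. The values are log2 signals of mRNA, in which fewer expressing cells and less mRNA per cell cannot be told apart.

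MMPs are zinc-dependent proteases that cut collagens, proteoglycans and other matrix components, and most are secreted as inactive precursors or anchored in the plasma membrane. ADAMs are membrane proteins, several of which release growth factors and receptors from the cell surface, and ADAMTS proteases are secreted enzymes that process procollagens and cut proteoglycans. TIMPs bind and inhibit the active enzymes. In the kidney and in RCC these proteases are studied for the remodeling of basement membrane and stroma, and VHL itself is known for marking HIF-alpha subunits for degradation and for a role in matrix assembly.

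The promoters of 5 genes called for VHL are shown first. They were chosen because each held at least 1 match to the short motifs searched, whereas the windows of ADAM22, ADAMTS2 and MMP15, also called for VHL, held none. RefSeq (GRCh38.p14) windows running from 250 bases before to 50 bases after the start site matched 37 of the 64 genes. The motifs searched on both strands were ACGTG and GCGTG, the core letters of hypoxia response elements, and TGANTCA. The last allows any middle letter, while the core of AP-1 sites is TGAGTCA or TGACTCA. Matches are in capitals. The windows are ADAM12 at chr10:126388428-126388727 on the minus strand, MMP14 at chr14:22836335-22836634 on the plus strand, ADAMTS12 at chr5:33891941-33892240 on the minus strand, MMP7 at chr11:102530698-102530997 on the minus strand and ADAMTS3 at chr4:72569172-72569471 on the minus strand.
ADAM12: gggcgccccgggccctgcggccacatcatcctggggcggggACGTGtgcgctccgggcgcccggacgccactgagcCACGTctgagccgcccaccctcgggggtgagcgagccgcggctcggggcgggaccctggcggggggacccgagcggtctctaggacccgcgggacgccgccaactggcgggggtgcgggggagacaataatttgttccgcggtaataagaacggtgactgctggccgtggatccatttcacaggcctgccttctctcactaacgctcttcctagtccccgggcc
MMP14: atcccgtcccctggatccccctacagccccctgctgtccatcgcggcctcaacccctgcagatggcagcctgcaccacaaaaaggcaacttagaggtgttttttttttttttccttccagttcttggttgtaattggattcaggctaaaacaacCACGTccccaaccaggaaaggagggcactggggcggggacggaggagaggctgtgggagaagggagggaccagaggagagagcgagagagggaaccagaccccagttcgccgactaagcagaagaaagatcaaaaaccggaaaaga
ADAMTS12: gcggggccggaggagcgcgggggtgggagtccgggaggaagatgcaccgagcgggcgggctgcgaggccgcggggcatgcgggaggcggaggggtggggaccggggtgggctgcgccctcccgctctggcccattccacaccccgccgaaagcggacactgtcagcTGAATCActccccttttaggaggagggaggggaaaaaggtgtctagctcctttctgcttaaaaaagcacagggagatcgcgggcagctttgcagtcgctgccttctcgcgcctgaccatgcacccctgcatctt
MMP7: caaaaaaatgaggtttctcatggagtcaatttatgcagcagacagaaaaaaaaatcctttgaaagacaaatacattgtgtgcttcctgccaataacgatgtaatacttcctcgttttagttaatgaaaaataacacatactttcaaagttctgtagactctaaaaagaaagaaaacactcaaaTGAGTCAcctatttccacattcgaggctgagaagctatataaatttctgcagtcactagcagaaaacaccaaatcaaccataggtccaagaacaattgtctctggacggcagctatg
ADAMTS3: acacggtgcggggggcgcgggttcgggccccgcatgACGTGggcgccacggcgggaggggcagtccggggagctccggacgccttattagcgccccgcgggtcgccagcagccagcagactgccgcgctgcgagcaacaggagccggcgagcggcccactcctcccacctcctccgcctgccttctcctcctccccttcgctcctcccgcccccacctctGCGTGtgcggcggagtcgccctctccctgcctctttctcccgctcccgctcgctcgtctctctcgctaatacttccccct

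The ADAM12 window held ACGTG at 2 places, the first letter of each match lying 209 and 174 bases before the start site. That of MMP14 held it once, 96 bases before the start, and that of ADAMTS3 held ACGTG 214 bases and GCGTG 30 bases before the start. TGANTCA lay 67 bases before the start in MMP7, as TGAGTCA. It lay 84 bases before the start in ADAMTS12, as TGAATCA, which is not the AP-1 core. Over the 37 windows, ACGTG was present in 13 (35.1%), GCGTG in 13 (35.1%) and TGANTCA in 4 (10.8%), against 21.4%, 36.5% and 7.71% of all 35116 promoters. The 4 windows with TGANTCA were those of MMP7, MMP10, MMP20 and ADAMTS12. ACGTG or GCGTG was present in 1 of 5 windows of genes called higher in VHL+ cells and in 2 of 3 called lower. It was present in 17 of 29 windows of genes not called (58.6%) and in 48.4% of all promoters. These matches describe the letters of the windows and not occupied sites. No window was matched for ADAM2, ADAM5, ADAM6, ADAM9, ADAM11, ADAM18, ADAM28, ADAM32, ADAM33, ADAMTS1, ADAMTS4, ADAMTS5, ADAMTS8, ADAMTS9, ADAMTS16, MMP1, MMP2, MMP3, MMP9, MMP12, MMP13, MMP16, MMP17, MMP19, MMP25, MMP28 or TIMP2.

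The array medians lay between 6.60 and 6.91, and 32 of the 64 genes were below the median of every array. The replicates of a group had a Pearson's r between 0.991 and 0.994 over transcript clusters, features that do not count as replicates. VHL, the transfected gene, measured between 8.85 and 9.16 in VHL+ cells and between 8.23 and 8.51 in VHL- cells. Of 7 renal and RCC markers, PAX8, KRT8, KRT18, VIM and CDH2 were above 10 on every array, PAX2 measured 7.95 to 8.14 in VHL+ cells and 7.13 to 7.68 in VHL- cells, and LHX1 measured 6.87 to 7.77 in VHL+ cells and 7.63 to 8.29 in VHL- cells. In the average of both oxygen conditions, PAX2 was higher (log2 fold change 0.56) and CDH2 (-0.58) and LHX1 (-0.74) lower in VHL+ cells, with adjusted p values of 0.00252, 0.000909 and 0.00490 (limma), and their part in the differences below was not tested. By contrast, all 4 leukocyte and all 3 endothelial markers were below the median of every array. The 4 fibroblast markers were mixed. COL3A1 and DCN were below every array's median. COL1A1 measured 7.21 to 7.78 and was below the median of no array. LUM measured 6.03 to 8.65 and was below the median of 2 arrays.

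Some of the 64 genes differed between VHL+ and VHL- cells, and some of the differences were large. Averaged over both oxygen conditions, 8 of the 64 genes were higher and 8 lower in VHL+ cells (limma, adjusted p under 0.05 over all 33297 clusters). Of all 18417 genes, 15.4% were called higher and 4.85% lower in this comparison, and of the 64 genes 12.5% were called in each direction. The median log2 fold change of the 64 genes was 0.05, against 0.07 over all genes. Under hypoxia 8 genes were higher and 6 lower, beside 14.3% and 1.72% of all genes. Under normoxia 2 were higher and 6 lower, beside 3.17% and 3.40% of all genes. The genes called lower were MMP2, MMP13, ADAM12, ADAMTS5 and ADAMTS9 in both oxygen conditions, MMP14 under normoxia, MMP1 under hypoxia and ADAMTS12 in the average alone.

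**Figure D1:**
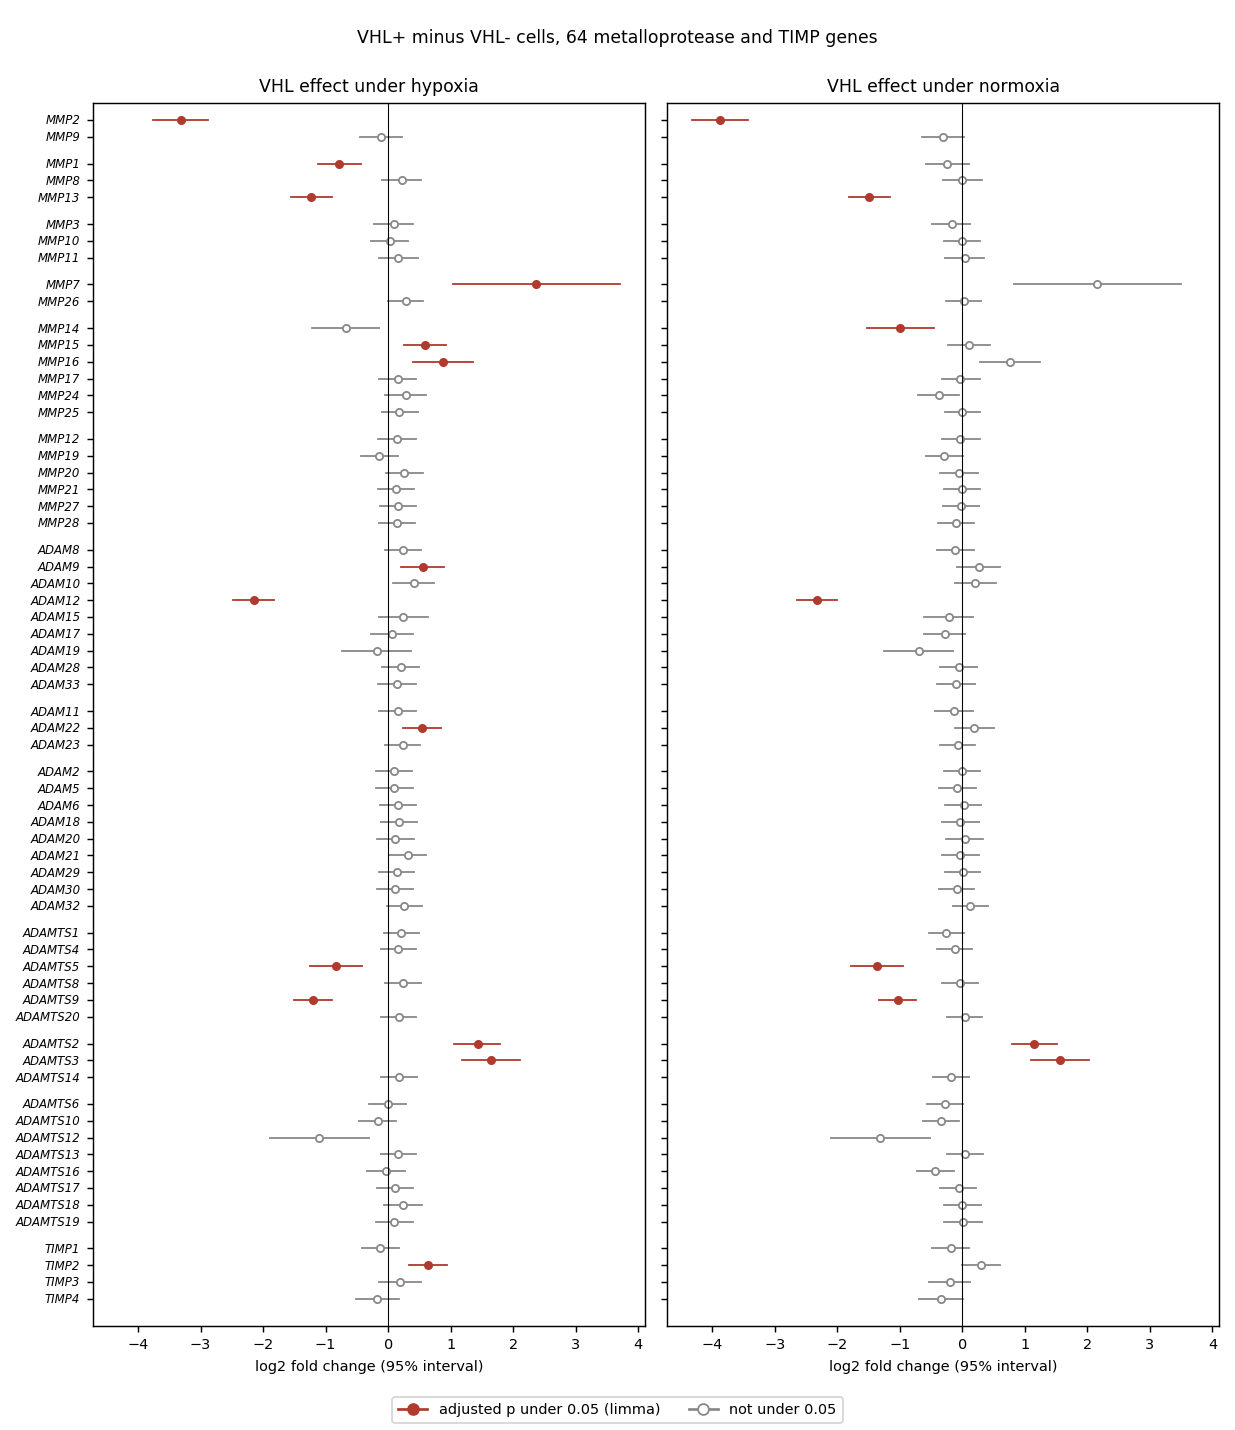
Log2 fold change, VHL+ minus VHL- cells, for each of the 64 genes under hypoxia (left) and normoxia (right), with the 95% interval of the limma fit as a line. Filled red points mark genes with an adjusted p under 0.05, and most genes lie near 0, while MMP2 (-3.32 and -3.87) and ADAM12 (-2.15 and -2.33) lie farthest below it.

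Quantile normalization ended the calls in the average of MMP7, MMP14, MMP15, MMP16, ADAM9, ADAM22, ADAMTS12 and TIMP2. Among these, MMP14 (-0.83) and MMP16 (0.82) differed by more than MMP1 (-0.51), whose call was kept. MMP7 and ADAMTS12 had a wide replicate spread. Under hypoxia the median over all clusters was 0.16 above 0, and quantile normalization turned the split over all clusters from 3437 higher and 436 lower into 920 higher and 911 lower. It also lowered limma's prior degrees of freedom to 2.82, and the parts of scale and of the variance estimate in the lost calls were not tested. For the 64 genes it gave 2 higher and 6 lower in place of 8 and 6. In the average it gave 2 higher and 10 lower in place of 8 and 8, beside 2473 higher and 2260 lower in place of 3645 and 1251 over all clusters. The 7 genes MMP2, MMP13, ADAM12, ADAMTS5 and ADAMTS9 (lower) and ADAMTS2 and ADAMTS3 (higher) were called in the average under every limma alternative, each single array left out included. Of the other 9 genes called in the average, MMP1 was lost without VHL+ hypoxia replicate 2 (adjusted p = 0.0883, limma), and the remaining 8 were lost after quantile normalization. MMP7, MMP14, MMP15, ADAM9, ADAM22 and ADAMTS12 were also lost without VHL+ hypoxia replicate 1 or replicate 2, and MMP16 without replicate 1. MMP15, ADAM9 and ADAM22 were lost without VHL+ normoxia replicate 2, MMP15 and ADAM9 without replicate 1 of either VHL- group and ADAM22 without VHL- normoxia replicate 2, with an adjusted p of up to 0.236 for MMP15.

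Of the gelatinases, which cut denatured collagen and basement membrane collagen, MMP2 had the largest difference among the 64 genes. In VHL+ cells it measured 8.07 and 7.09 under hypoxia and 7.13 and 6.97 under normoxia, whereas in VHL- cells it measured 10.94 and 10.87 under hypoxia and 10.87 and 10.97 under normoxia. All 4 VHL+ arrays lay below all 4 VHL- arrays, and 1 VHL+ array under hypoxia stood about 1 log2 unit above the other. MMP2 was 9.98-fold lower in VHL+ cells under hypoxia (log2 fold change -3.32, SE 0.21, adjusted p = 1.65e-08, limma) and 14.6-fold lower under normoxia (-3.87, SE 0.21, adjusted p = 1.61e-09, limma). MMP9, the other gelatinase, measured 6.34 to 6.64 in VHL+ cells and 6.46 to 6.87 in VHL- cells. Its ranges overlapped, and its average log2 fold change was -0.21 (SE 0.11, adjusted p = 0.292, limma).

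Among the collagenases, which cleave fibrillar collagen, MMP13 measured 6.18 and 5.95 under hypoxia and 6.17 and 6.03 under normoxia in VHL+ cells. In VHL- cells it measured 7.08 and 7.51 under hypoxia and 7.64 and 7.54 under normoxia. The groups did not overlap, and the VHL+ values were below the median of their arrays, where part of a signal can be background and a fold can be understated. MMP13 was lower in VHL+ cells under hypoxia (-1.23, SE 0.16, adjusted p = 5.64e-05, limma) and under normoxia (-1.49, SE 0.16, adjusted p = 8.50e-06, limma). MMP1 measured 7.68 and 7.33 under hypoxia and 7.43 and 7.56 under normoxia in VHL+ cells, and 8.46 and 8.11 under hypoxia and 7.88 and 7.60 under normoxia in VHL- cells. Its VHL- arrays under hypoxia were above the other 6 arrays. It was 1.72-fold lower in VHL+ cells under hypoxia (-0.78, SE 0.16, adjusted p = 0.00413, limma) and differed by -0.24 under normoxia (SE 0.16, adjusted p = 0.685, limma). Leaving out VHL+ hypoxia replicate 1 or replicate 2 ended the MMP1 call, with an adjusted p of up to 0.117. MMP8, the neutrophil collagenase, was below the median of every array.

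MMP7, matrilysin, a small secreted protease of epithelia, ran the other way. In VHL+ cells it measured 10.52 and 11.41 under hypoxia and 10.50 and 11.60 under normoxia, whereas in VHL- cells it measured 7.41 and 9.78 under hypoxia and 7.63 and 10.14 under normoxia. Every VHL+ array was above every VHL- array, but the VHL- replicates lay more than 2 log2 units apart in each oxygen condition. The log2 fold change was 2.37 under hypoxia (SE 0.64, adjusted p = 0.0203, limma) and 2.16 under normoxia (SE 0.64, adjusted p = 0.0604, limma). The call under hypoxia was lost without VHL+ hypoxia replicate 1 or replicate 2 (adjusted p up to 0.336), after quantile normalization, with dim clusters left out and in limma with trend and robust estimation. LUM, lumican, from the list of fibroblast markers, was split between the same VHL- arrays, at 6.03 and 8.04 under hypoxia and 6.29 and 8.65 under normoxia, while DCN and COL3A1 stayed below the median of each. The mean of the 4 fibroblast markers lay between 6.56 and 6.94 in VHL+ cells and between 6.32 and 7.04 in VHL- cells. Its part in the MMP7 difference was not tested.

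**Figure D2:**
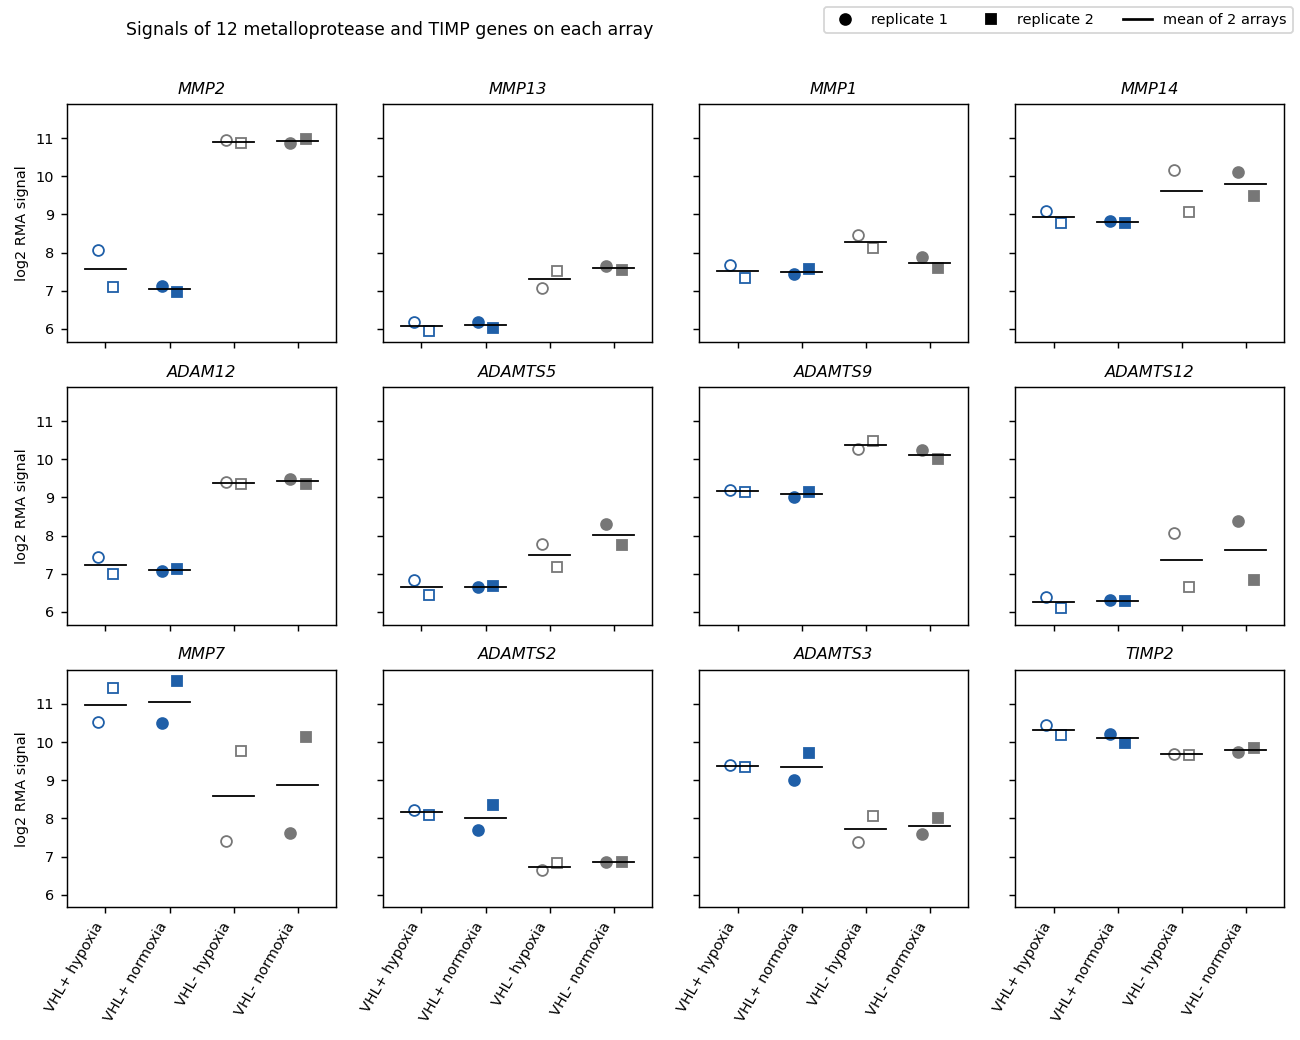
Log2 RMA signal of 12 genes on each array, in the order VHL+ hypoxia, VHL+ normoxia, VHL- hypoxia and VHL- normoxia, with circles for replicate 1, squares for replicate 2, open symbols for hypoxia, filled symbols for normoxia and lines for the mean of 2 arrays. MMP2 lies at 6.97 to 8.07 in VHL+ cells and at 10.87 to 10.97 in VHL- cells, and MMP7 spreads from 7.41 to 10.14 in VHL- cells.

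MMP7, MMP1 and MMP13 belong to a run of 9 MMP genes on chromosome 11 that follow each other with no other protein-coding gene between them in RefSeq (GRCh38.p14), in the order MMP7, MMP20, MMP27, MMP8, MMP10, MMP1, MMP3, MMP12 and MMP13. The outermost genes of the run differed in opposite directions, MMP7 being higher and MMP13 lower in VHL+ cells. The other 6 genes, leaving out MMP1, were not called in any comparison and were below the median of every array. At such signals, a difference in those 6 could have gone undetected.

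**Figure D3:**
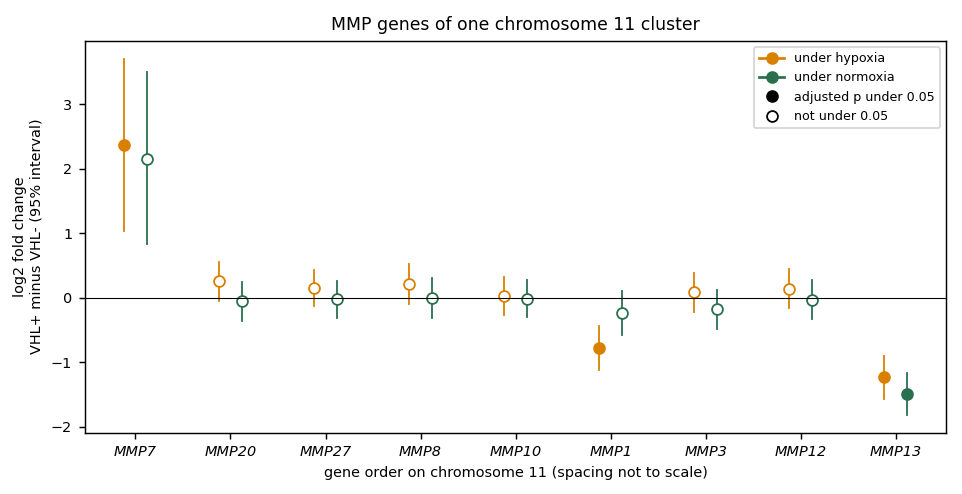
Log2 fold change, VHL+ minus VHL- cells, of the 9 neighboring MMP genes of chromosome 11 in their genomic order, under hypoxia (orange) and normoxia (green), with 95% intervals. MMP7 lies at 2.37 and 2.16, MMP13 at -1.23 and -1.49, and MMP1 at -0.78 under hypoxia and -0.24 under normoxia.

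The membrane-type MMPs, which act at the cell surface, were mixed, with 2 of 6 higher and 1 lower in VHL+ cells in the average. Shares over all genes were 15.4% higher and 4.85% lower. MMP14, which activates the MMP2 precursor, measured 9.08 and 8.78 under hypoxia and 8.84 and 8.78 under normoxia in VHL+ cells, and 10.16 and 9.06 under hypoxia and 10.12 and 9.48 under normoxia in VHL- cells. The groups overlapped by 1 array under hypoxia and were apart under normoxia. MMP14 was 1.99-fold lower in VHL+ cells under normoxia (-0.99, SE 0.25, adjusted p = 0.0279, limma), and its value under hypoxia was -0.68 (SE 0.25, adjusted p = 0.0996, limma). The call under normoxia was lost without VHL+ hypoxia replicate 1 or replicate 2 (adjusted p up to 0.282), after quantile normalization, with dim clusters left out and in a fit to the normoxia arrays alone.

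MMP16 and MMP15, further membrane-type enzymes, were called higher in VHL+ cells under hypoxia. MMP16 measured 7.92 and 7.13 in VHL+ cells and 6.74 and 6.56 in VHL- cells under hypoxia, a difference of 0.88 (SE 0.22, adjusted p = 0.0157, limma). Under normoxia it measured 7.74 and 7.35 in VHL+ cells and 7.10 and 6.47 in VHL- cells, and the difference of 0.76 had an adjusted p of 0.0611 (limma). MMP16 was below the array median on 2 VHL- arrays. A second transcript cluster of MMP16 gave an average log2 fold change of 0.91 (adjusted p = 0.000497, limma) beside 0.82 (adjusted p = 0.00138, limma) for the one used. MMP15 measured 7.50 and 7.49 in VHL+ cells and 6.68 and 7.12 in VHL- cells under hypoxia, a difference of 0.59 (SE 0.16, adjusted p = 0.0204, limma), and differed by 0.11 under normoxia (SE 0.16, adjusted p = 1.00, limma). Both calls under hypoxia ended after quantile normalization. Leaving out VHL+ hypoxia replicate 1 or replicate 2 ended both as well, and leaving out VHL- hypoxia replicate 1 ended that of MMP15, with an adjusted p of up to 0.522 for MMP16 and 0.311 for MMP15. MMP17, MMP24 and MMP25 were not called in any comparison, nor were the 3 stromelysins, MMP3, MMP10 and MMP11.

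Of the 9 ADAMs with a catalytic site that are known outside the reproductive tract, 1 was lower and 1 higher in VHL+ cells in the average. Shares over all genes were 4.85% lower and 15.4% higher. ADAM12, a protease of mesenchyme and many carcinomas, measured 7.45 and 6.98 under hypoxia and 7.06 and 7.11 under normoxia in VHL+ cells. In VHL- cells it measured 9.39 and 9.35 under hypoxia and 9.49 and 9.35 under normoxia. The groups were about 2 log2 units apart, with little spread within VHL- cells. ADAM12 was 4.45-fold lower under hypoxia (-2.15, SE 0.15, adjusted p = 7.38e-08, limma) and 5.04-fold lower under normoxia (-2.33, SE 0.15, adjusted p = 1.66e-08, limma).

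ADAM10 and ADAM17 are the main sheddases of cell-surface proteins. ADAM10 measured 11.07 to 11.45 in VHL+ cells and 10.80 to 11.13 in VHL- cells, with an average log2 fold change of 0.31 (95% interval 0.08 to 0.55, adjusted p = 0.0688, limma). ADAM17 measured 8.55 to 9.09 in VHL+ cells and 8.77 to 9.13 in VHL- cells, with an average of -0.11 (95% interval -0.34 to 0.12, adjusted p = 0.737, limma). Pooled over oxygen, both ranges overlapped between VHL+ and VHL- cells. ADAM10 did not overlap under hypoxia, with 11.44 and 11.31 in VHL+ cells and 10.80 and 11.13 in VHL- cells. Nor did ADAM17 under normoxia, with 8.55 and 8.79 in VHL+ cells and 8.82 and 9.08 in VHL- cells. ADAM9, a further sheddase, measured 10.86 and 10.83 in VHL+ cells and 10.15 and 10.45 in VHL- cells under hypoxia, and was higher by 0.55 (SE 0.16, adjusted p = 0.0336, limma). ADAM22, a neuronal ADAM without the catalytic site, measured 6.91 and 6.83 in VHL+ cells and 6.38 and 6.29 in VHL- cells under hypoxia, and was higher by 0.54 (SE 0.15, adjusted p = 0.0227, limma). The VHL+ and VHL- ranges of both did not overlap under hypoxia, but overlapped under normoxia and when pooled over oxygen. Under normoxia ADAM9 differed by 0.26 (adjusted p = 0.613, limma) and ADAM22 by 0.19 (adjusted p = 0.800, limma). ADAM22 was below the array median on 4 VHL- and 2 VHL+ arrays, where part of a signal can be background. With dim clusters left out, the ADAM9 call under hypoxia was lost. The call of each ended after quantile normalization and without VHL+ hypoxia replicate 1 or replicate 2. It also ended without VHL- hypoxia replicate 1 for ADAM9 (adjusted p up to 0.325) and without VHL- hypoxia replicate 2 for ADAM22 (adjusted p up to 0.248). The 9 ADAMs of the remaining group, known mostly from testis, were not called in any comparison. Of these, ADAM5 and ADAM6 have no protein-coding gene of that symbol in RefSeq.

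Of the 6 measured ADAMTS proteases that cut proteoglycans such as aggrecan and versican, 2 were lower in VHL+ cells in the average. The share called lower over all genes was 4.85%. ADAMTS9 measured 9.18 and 9.15 under hypoxia and 9.01 and 9.15 under normoxia in VHL+ cells, and 10.26 and 10.47 under hypoxia and 10.24 and 10.00 under normoxia in VHL- cells. The groups were separated on all arrays. The log2 fold change was -1.20 under hypoxia (SE 0.14, adjusted p = 2.97e-05, limma) and -1.03 under normoxia (SE 0.14, adjusted p = 0.000167, limma).

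ADAMTS5, an aggrecanase, measured 6.84 and 6.44 under hypoxia and 6.64 and 6.68 under normoxia in VHL+ cells, and 7.78 and 7.18 under hypoxia and 8.29 and 7.76 under normoxia in VHL- cells. The groups did not overlap, and the VHL+ values were below the median of their arrays. It was lower in VHL+ cells, with a log2 fold change of -0.84 under hypoxia (SE 0.20, adjusted p = 0.00979, limma) and -1.37 under normoxia (SE 0.20, adjusted p = 0.000281, limma). The call under hypoxia ended after quantile normalization and without VHL+ hypoxia replicate 1, VHL+ hypoxia replicate 2 or VHL- hypoxia replicate 1 (adjusted p up to 0.176).

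Among the procollagen N-propeptidases, which remove the amino-terminal propeptide of fibrillar procollagens, 2 of 3 were higher in VHL+ cells in the average. The share called higher over all genes was 15.4%. ADAMTS3 measured 9.39 and 9.34 under hypoxia and 9.01 and 9.71 under normoxia in VHL+ cells, and 7.37 and 8.07 under hypoxia and 7.59 and 8.0 under normoxia in VHL- cells. ADAMTS2 measured 8.23 and 8.10 under hypoxia and 7.69 and 8.35 under normoxia in VHL+ cells, and 6.64 and 6.83 under hypoxia and 6.87 and 6.86 under normoxia in VHL- cells. For both genes every VHL+ array was above every VHL- array. ADAMTS3 was 3.12-fold higher under hypoxia (1.64, SE 0.22, adjusted p = 0.000104, limma) and 2.97-fold higher under normoxia (1.57, SE 0.22, adjusted p = 0.000215, limma). ADAMTS2 was 2.69-fold higher under hypoxia (1.43, SE 0.17, adjusted p = 3.91e-05, limma) and 2.23-fold higher under normoxia (1.15, SE 0.17, adjusted p = 0.000439, limma). In single oxygen conditions the calls were lost without VHL+ hypoxia replicate 1 or replicate 2, except that of ADAMTS2 under hypoxia without replicate 2, with an adjusted p of up to 0.106 for ADAMTS3 and 0.0671 for ADAMTS2. The calls of both under normoxia also ended in a fit to the normoxia arrays alone. ADAMTS14, the third member, measured 6.38 to 6.62 in VHL+ cells and 6.40 to 6.74 in VHL- cells and was not called.

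ADAMTS12, an ADAMTS protease outside these groups, measured 6.40 and 6.10 under hypoxia and 6.30 and 6.29 under normoxia in VHL+ cells, and 8.06 and 6.64 under hypoxia and 8.38 and 6.84 under normoxia in VHL- cells. The VHL+ arrays were below the VHL- arrays, whose replicates lay far apart. ADAMTS12 was below the array median on 4 VHL+ arrays and 1 VHL- array. The average log2 fold change was -1.21 (SE 0.27, adjusted p = 0.00383, limma), and the call ended without VHL+ hypoxia replicate 1 or replicate 2 (adjusted p up to 0.185) and after quantile normalization.

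Of the inhibitors, TIMP2 alone was called. TIMP2, which also takes part in the activation of the MMP2 precursor by MMP14, measured 10.46 and 10.19 in VHL+ cells and 9.69 and 9.67 in VHL- cells under hypoxia, and 10.21 and 9.98 in VHL+ cells and 9.75 and 9.84 in VHL- cells under normoxia. The groups did not overlap in either oxygen condition. TIMP2 was higher by 0.64 under hypoxia (SE 0.14, adjusted p = 0.00670, limma), and its value under normoxia was 0.30 (SE 0.14, adjusted p = 0.379, limma). The call under hypoxia ended after quantile normalization and without VHL+ hypoxia replicate 1 (adjusted p up to 0.150). TIMP1 measured 11.63 to 11.83 in VHL+ cells and 11.77 to 12.03 in VHL- cells, with an average of -0.15 (95% interval -0.36 to 0.05, adjusted p = 0.433, limma). TIMP3 measured 5.94 to 6.49 in VHL+ cells and 6.00 to 6.23 in VHL- cells, below the median of every array. TIMP4 measured 6.22 to 6.52 in VHL+ cells and 6.34 to 6.78 in VHL- cells, with an average of -0.26 (95% interval -0.51 to -0.01, adjusted p = 0.187, limma).

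Hypoxia changed few of the 64 genes. In VHL+ cells limma called 0 of 64, beside 0.244% of all genes, and the methods' one-way test, adjusted, called 0. An unadjusted p under 0.05 was found for 5 of the 64, beside 2052 of all 33297 clusters (limma). Those 5, singled out after their values were seen, were MMP24 (0.53), MMP2 (0.54), MMP15 (0.38), ADAMTS16 (0.36) and ADAM17 (0.35), given as log2 fold changes of hypoxia over normoxia, and the smallest adjusted p among them was 0.377 (limma). In VHL- cells 1 of 64 was called, beside 0.0760% of all genes. All but 8 of the 64 genes in VHL+ cells, and all but 3 in VHL- cells, differed by less than 0.3 on the log2 scale.

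The gene called was ADAMTS1, an aggrecan- and versican-cleaving protease. In VHL- cells it measured 8.06 and 8.0 under hypoxia and 8.77 and 8.78 under normoxia, and in VHL+ cells it measured 8.33 and 8.15 under hypoxia and 8.55 and 8.47 under normoxia. In both cell types the hypoxia arrays were below the normoxia arrays. It fell with hypoxia in VHL- cells, the log2 fold change being -0.75 (SE 0.13, adjusted p = 0.0446, limma), and the value in VHL+ cells was -0.27 (SE 0.13, adjusted p = 0.838, limma). Averaged over VHL status, ADAMTS1 was the one gene called of 64, beside 0.282% of all genes, at -0.51 (SE 0.09, adjusted p = 0.0368, limma). The call in VHL- cells was lost without either VHL+ hypoxia array or either VHL- normoxia array (adjusted p up to 0.538), and the averaged call without VHL+ hypoxia replicate 1 or replicate 2 (adjusted p up to 0.506). Both ended after quantile normalization.

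MMP1 under hypoxia in VHL- cells differed by 0.54 (SE 0.16, adjusted p = 0.450, limma), and ADAMTS5 by -0.55 (SE 0.20, adjusted p = 0.691, limma). MMP2, with 10.94 and 10.87 under hypoxia and 10.87 and 10.97 under normoxia, differed by -0.02 in VHL- cells (95% interval -0.46 to 0.43). The interaction, which asks whether hypoxia acted differently in VHL+ and VHL- cells, was called for 0 of 64 genes by limma, beside 0.00% of all genes. At an unadjusted p under 0.05 there were 4 of the 64, beside 1869 of all 33297 clusters (limma). These 4, named after their values were seen, were MMP24 (0.66), ADAMTS1 (0.48), MMP15 (0.48) and MMP1 (-0.54). The values are the log2 hypoxia effect in VHL+ cells minus that in VHL- cells. Each of the 4 had an adjusted p of 0.651 (limma). The median interaction of the 64 genes was 0.22, against 0.21 over all clusters.

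**Figure D4:**
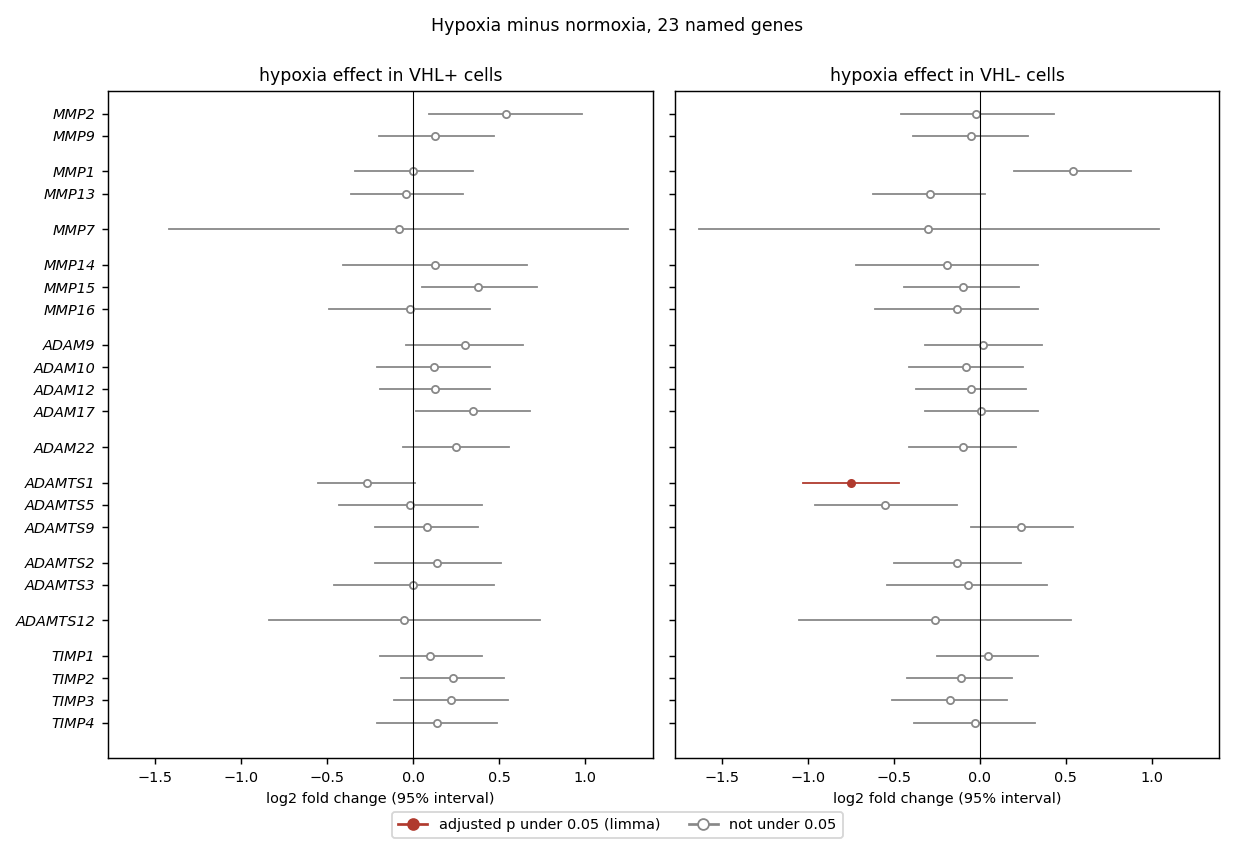
Log2 fold change, hypoxia minus normoxia, of 23 named genes in VHL+ cells (left) and VHL- cells (right), with the 95% interval of the limma fit as a line. ADAMTS1 in VHL- cells (-0.75) is the only filled point, and the interval of MMP7 is the widest in both cell types.

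The spread between replicates was itself uneven among the 64 genes. In VHL- cells 5 genes, namely MMP7, MMP14, ADAM19, ADAMTS5 and ADAMTS12, differed by more than 0.5 on the log2 scale between replicate 2 and replicate 1, in the same direction under hypoxia and normoxia, as did 1.66% of all clusters. In VHL+ cells MMP7 alone did so, as did 0.393% of all clusters. In VHL- cells the difference, replicate 2 minus replicate 1, was -1.42 under hypoxia and -1.54 under normoxia for ADAMTS12, and 2.37 under hypoxia and 2.51 under normoxia for MMP7. ADAM19, a sheddase of neuregulin, measured 9.45 and 8.64 under hypoxia and 9.55 and 8.81 under normoxia in VHL- cells and was not called in any comparison. The number that 2 VHL- cultures share is the only property in the labels that goes with this split.

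**Figure D5:**
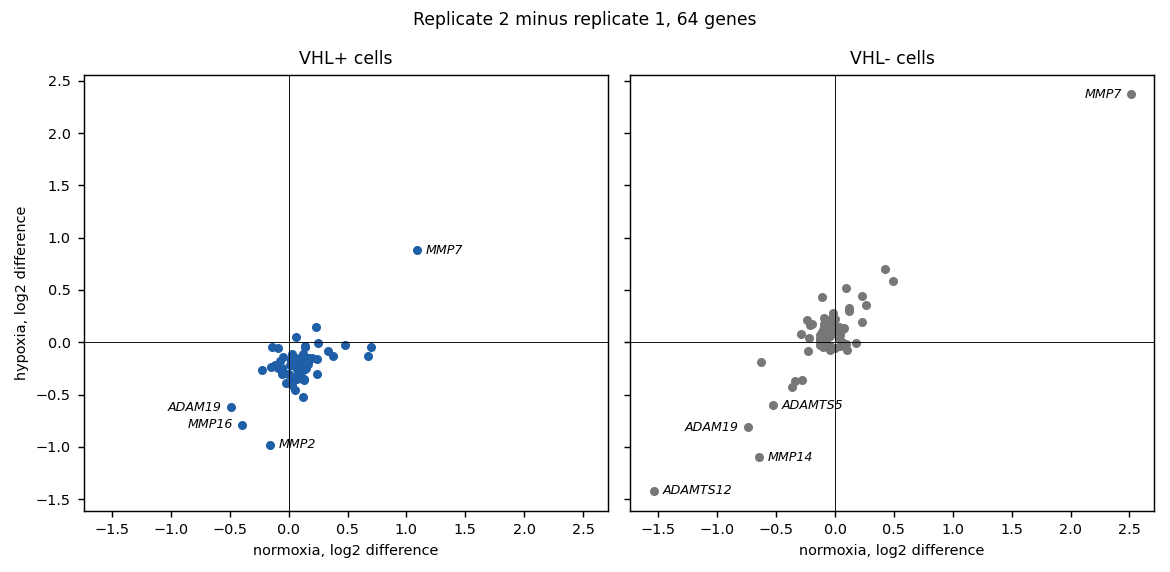
Log2 difference, replicate 2 minus replicate 1, under hypoxia (vertical axis) and normoxia (horizontal axis) for the 64 genes, with VHL+ cells on the left and VHL- cells on the right. MMP7 lies at 2.37 under hypoxia and 2.51 under normoxia in VHL- cells, and ADAMTS12 at -1.42 and -1.54, while most genes lie near 0.

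In all, 47 of the 64 genes were not called in any of the 7 comparisons. The 41 of these not named by rule had average VHL effects no larger than 0.44 and average hypoxia effects no larger than 0.20 on the log2 scale in either direction, and 31 of them were below the median of every array. The fold of a gene so near background can be understated, and with 2 arrays per group precision is limited by their number. MMP23B was represented only by a cluster shared with MMP23A and was not analysed here.

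Partners and regulators of these proteases were taken as a list of 23 measured genes, of which 6 were higher and 6 lower in VHL+ cells in the average (26.1% each way, beside 15.4% and 4.85% of all genes). PCSK5, a proprotein convertase, measured 6.79 and 6.49 under hypoxia and 6.44 and 6.51 under normoxia in VHL+ cells, and 8.06 and 8.04 under hypoxia and 8.44 and 8.18 under normoxia in VHL- cells. It was lower in VHL+ cells by an average log2 fold change of -1.62 (SE 0.10, adjusted p = 3.98e-09, limma), whereas FURIN, the convertase that activates the membrane-type MMPs, was higher by 0.64 (SE 0.09, adjusted p = 9.67e-05, limma). TSPAN15, a tetraspanin that escorts ADAM10, was lower (-2.16, SE 0.16, adjusted p = 2.68e-08, limma), and TSPAN14 (0.41) and TSPAN17 (0.38), of the same group, were higher while TSPAN5 (-0.37) was lower. TFPI2, a Kunitz-type inhibitor, and ADAMTSL3, an ADAMTS-like protein without protease activity, were lower as well (-1.65 and -1.51). THBS1, thrombospondin 1, and ADAMTSL5 were higher by 1.13 and 0.53. Of the iRhoms that carry ADAM17 to the surface, RHBDF1 was higher (0.37) and RHBDF2 lower (-0.34). The calls of RHBDF1, RHBDF2, TSPAN5 and TSPAN17 were lost without 1 or another array of each of 3 or 4 groups (adjusted p up to 0.0697, 0.103, 0.268 and 0.0941, limma), and those of TSPAN5, TSPAN14 and TSPAN17 after quantile normalization. The median over the list was 0.05, against 0.07 over all genes. In single oxygen conditions, PCSK5, TSPAN15, TFPI2, ADAMTSL3 and THBS1 were called in both. FURIN (0.93), TSPAN14 (0.65), TSPAN17 (0.60), RHBDF1 (0.53) and ADAMTSL5 (0.69) were called under hypoxia alone. Their values under normoxia were 0.34, 0.17, 0.17, 0.22 and 0.36. RHBDF2 was called under normoxia alone (-0.57, and -0.11 under hypoxia), and TSPAN5 in neither.

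Of 11 AP-1 and ETS factors known to act on MMP promoters, 0 were called for VHL under normoxia in limma. FOSL1, JUN, ETS1, ETS2 and ETV4 had an unadjusted p under 0.05 there, as did 4525 of all 33297 clusters. ETV5 was lower in VHL+ cells under hypoxia (-0.46, SE 0.14, adjusted p = 0.0458, limma). In the average 1 of the 11 was higher, ETS2 (0.45), and 2 were lower in VHL+ cells, FOSL1 (-0.48) and JUN (-0.36), beside the same 15.4% and 4.85% of all genes. ETS1 measured 10.32 and 10.15 under hypoxia and 9.35 and 9.51 under normoxia in VHL+ cells, and rose by 0.80 with hypoxia (SE 0.15, adjusted p = 0.0278, limma). Each of these 5 calls was lost without VHL+ hypoxia replicate 1 or replicate 2 and without at least 1 array of another group, with an adjusted p of up to 0.999 for ETS1, 0.246 for ETV5, 0.262 for ETS2, 0.357 for FOSL1 and 0.157 for JUN (limma).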

How the data were processed

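Total RNA of 786-O cells had been hybridized to Affymetrix Human Gene 1.0 ST arrays, 8 in all. The deposited log2 signals, 1 for each transcript cluster and array, had been made by the authors with the RMA procedure (Robust Multichip Average) in Partek, and were used as they stand. RMA leaves no detection call, so that low signals carry unknown background. Groups and replicates came from the sample labels, and gene symbols from the platform annotation.

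Contrasts were fitted with limma 3.58.1 in R 4.3.3 on all arrays with a mean for each group (residual degrees of freedom 4, prior 14.0), 95% intervals and p values adjusted by Benjamini-Hochberg over 33297 clusters, called under 0.05. Averages are the means of the effects of 2 conditions. The replicates are labelled biological. The genes and lists were chosen with earlier results of these data known. Genes were named if called in any of 7 contrasts, if among the 5 with the highest mean signal, or if they were TIMPs, MMP1, MMP2, MMP9, MMP13, MMP14, ADAM10 or ADAM17, and listed partners and factors if called. The methods' one-way test (unadjusted p under 0.005), scaling, filters, variance models, fits to the compared groups, a replicate block and single arrays left out were alternatives. The fit was tested on simulated data with independent noise for each array, so that correlated replicate differences were not covered.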

Additional observations from a re-analysis of the deposited data

How the results depend on the processing

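The counts of called genes among the 64 depended on scale and on single arrays. In this section they are not set beside the calls over all clusters, which also changed after quantile normalization. A change particular to the 64 genes can therefore not be read from them. For VHL under hypoxia, 14 in the fit reported, quantile normalization and median centring each gave 8, the methods' one-way test gave 0 at an unadjusted p under 0.005 and 0 after adjustment, and leaving out 1 array gave 4 to 19. For VHL under normoxia, 8 as reported, the methods' test gave 3 and, adjusted, 0, limma on the compared groups alone gave 5, and leaving out 1 array gave 5 to 12. For VHL in the average, 16 as reported, leaving out 1 array gave 9 to 19. For hypoxia in VHL- cells, 1 as reported, quantile normalization, median centring, dim clusters left out, 1 cluster per gene, the adjusted methods' test and the compared groups alone each gave 0, trend with robust estimation gave 2, and leaving out 1 array gave 0 to 4. For hypoxia in the average, also 1, quantile normalization, median centring and dim clusters left out each gave 0, and leaving out 1 array gave 0 to 2. The interaction, 0 as reported, gave 0 to 1 with 1 array left out. The count for hypoxia in VHL+ cells was 0 in each of these. One value changed direction: MMP7 under hypoxia in VHL- cells was 0.96 without VHL- normoxia replicate 2, against -0.30 with all arrays, and -1.55 without VHL- normoxia replicate 1. Each such fit leaves 1 array in the group, which is assumed to vary like the other groups. The prior degrees of freedom of limma were 4.14 without a VHL+ hypoxia array, 46.7 without a VHL+ normoxia array, 111 without a VHL- hypoxia array, infinite without a VHL- normoxia array, 2.82 after quantile normalization and 2.93 after median centring. The causes of all these changes were not tested. The methods' test has few degrees of freedom with 2 arrays per group.

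With the replicate number as a block, VHL gave 12 calls under normoxia, 16 under hypoxia and 18 in the average, and hypoxia gave 0 in VHL+ cells, 1 in VHL- cells and 1 in the average. Across clusters, the replicate differences correlated at 0.60 between the VHL- groups, at 0.31 between the VHL+ groups and at 0.05 to 0.21 across VHL status. The numbers thus did not pair all groups, and went together most within VHL- cells. The block was 1 term shared by all groups, and a pairing within VHL+ or VHL- cells was not fitted. In VHL- cells MMP7 was lower under hypoxia than normoxia at both numbers, 7.41 and 7.63 for replicate 1 and 9.78 and 10.14 for replicate 2. After quantile normalization ADAMTS10, ADAMTS16, ADAMTS6 and MMP19 were called lower in VHL+ cells in the average (-0.32, -0.35, -0.19 and -0.27). Signals below the median of every array limit what could be seen of 32 genes.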
